A study of Mus musculus with 6 samples.

Results

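CD8 T cells of B16-OVA tumors whose receptor sequence was found in no other CD8 cell of their library were compared between mice whose mature CD8 T cells lack the IFNγ receptor and control mice. A tumor barcode was taken when a TRA and a TRB contig had been assembled for it and when it held at least 1 UMI (a molecule counted once) each of *Cd8a* and *Cd8b1*. Its clone was defined by the CDR3 nucleotides of the TRA and of the TRB contig with most UMIs, and clones with exactly 1 such cell were kept. They are called single-cell clones here, although further cells of the same clone may have gone uncaptured. The rule found 690 cells among 47860 barcodes of 4 gene expression libraries, 471 of them CD8-IFNγRKO and 219 control.

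The tumors grew from B16-OVA, a murine melanoma line carrying the model antigen ovalbumin. The line was engrafted into CD8-Cre-Rosa26Tomato mice, the controls, and into CD8-IFNγRKO mice of the genotype CD8-Cre-Rosa26Tomato-IFNgR1flox/flox, and tumors and draining lymph nodes were taken after 12 days. Both genotypes thus carried the Cre transgene, which is active in mature CD8 T cells, and the Tomato reporter, and cells were sorted on CD45, CD3, CD8 and Tomato before 10x 5′ gene expression and TCR sequencing. The design text calls the controls C57Bl6 WT, whereas the genotype label gives the Cre and the reporter, and no label gives an age. Cells of 3 mice per genotype were pooled into 1 library and no file ties a cell to a mouse. Genotype, mice, tumor and library therefore cannot be told apart, no test was possible, and values are levels in CPM (a gene's UMIs summed over the cells and scaled to a common library total) with exact Poisson 95% intervals. Ratios are log2 of CD8-IFNγRKO over control after 1 CPM was added to both, with exact conditional binomial intervals, and the intervals given for shares are exact Clopper-Pearson ones. All these intervals cover counting error only, and in summed counts fewer cells of a kind and less RNA per cell cannot be told apart.

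IFNγ binds a surface receptor made of IFNγR1 and IFNγR2. The receptor activates JAK1 and JAK2, and the signal reaches promoters of genes such as *Irf1*, the guanylate-binding proteins and the antigen presentation genes. A T cell clone descends from 1 thymocyte that rearranged its receptor genes, so that cells of a clone share the CDR3, the junction that contacts peptide and MHC. In tumors, expanded clones are often rich in granzymes and inhibitory receptors, while cells with naive-like or stem-like transcripts express TCF1 (encoded by *Tcf7*) and CCR7.

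Single-cell clones made up most clones but few cells. In the CD8-IFNγRKO library they were 471 of 543 clones (86.7%, 83.6 to 89.5) and of 6402 clonotyped CD8 cells (7.36%, 6.73 to 8.02). In the control library they were 219 of 301 clones (72.8%, 67.4 to 77.7) and of 4613 cells (4.75%, 4.15 to 5.40). These numbers are what the rule selects on and describe the libraries. The 3 largest clones of the CD8-IFNγRKO library had 1558, 1260 and 334 cells, and those of the control library 1164, 1075 and 557. Just outside the rule were 19 and 12 clones of 2 cells, and 260 and 166 barcodes with a clone of their own that lacked *Cd8a* or *Cd8b1*. Just inside were 6 and 4 cells whose clone had a second barcode without *Cd8a* or *Cd8b1*.

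Depth was alike between genotypes. Median UMIs per cell were 3858 (10th to 90th percentile 2210 to 7576) in CD8-IFNγRKO single-cell clones and 3826 (2399 to 7283) in control ones, with 1497 and 1503 genes, and the summed libraries held 2123828 and 1030896 UMIs. Cells of larger clones were deeper, with median UMIs of 9993 and 6114, whereas lymph node CD8 cells held 3714 and 3833. Mitochondrial genes took a median of 0.95% and 0.836% of UMIs. A second TRB contig, a mark that doublets can carry, was present in 19 CD8-IFNγRKO cells (4.03%) and 12 control cells (5.48%), against 165 of 5931 and 88 of 4394 cells of larger clones. The tumor libraries shared 169 barcodes, of which 6 CD8-IFNγRKO and 3 control single-cell clones held one.

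The rule keeps clones that differ in their CDR3 pair, so the numbers of distinct sequences are largely set by it and are given as a description. The cells used 77 TRA V genes in CD8-IFNγRKO and 66 in control cells, 20 and 21 TRB V genes, and 462 and 214 distinct TRA CDR3, with 469 and 218 distinct TRB CDR3. CDR3 length had a median of 42 bases in both. No TRB CDR3 was shared between single-cell clones of the libraries, but 4 TRA CDR3 were. They are shown because they are the only junctions that these cells of both genotypes had in common:
TRA 1 (TRAV14-2 or TRAV14N-3, TRAJ22): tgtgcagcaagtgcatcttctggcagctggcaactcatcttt
TRA 2 (TRAV10N or TRAV10, TRAJ22): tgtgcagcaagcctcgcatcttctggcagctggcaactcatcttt
TRA 3 (TRAV7-3, TRAJ26): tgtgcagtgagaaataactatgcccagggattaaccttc
TRA 4 (TRAV4-4-DV10, TRAJ53): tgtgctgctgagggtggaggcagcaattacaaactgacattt
Chain 1, of 42 bases, was found in 4 CD8-IFNγRKO and 6 control single-cell clones and in no larger clone. The V and J genes printed for chain 1 are those of 1 cell of each library. Chains 2 to 4 were found in 1 clone of each library. The partners of chain 1 differed in every cell, with 10 distinct TRB CDR3 from 5 V genes. A partner from each library is shown, with capitals for the bases between the start and the end that the pair has in common:
CD8-IFNγRKO partner of TRA 1 (TRBV31, TRBJ2-3): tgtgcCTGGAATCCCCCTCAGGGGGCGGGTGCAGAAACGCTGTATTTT
control partner of TRA 1 (TRBV16, TRBJ2-7): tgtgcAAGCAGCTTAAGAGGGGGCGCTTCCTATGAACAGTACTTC
Within a library, 25 CD8-IFNγRKO single-cell clones (5.31%) and 16 control ones (7.31%) shared a TRA or TRB CDR3 with another clone. The TRB CDR3 of a larger clone occurred in 3 and 5 of them, and the TRA CDR3 of a larger clone in 4 and 4.

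For *Tcf7* and *Gzmb*, single-cell clones sat between lymph node cells and larger tumor clones in both genotypes. *Tcf7* stood at 496 CPM in CD8-IFNγRKO and 358 CPM in control single-cell clones, against 554 and 584 in lymph node cells and 6.41 and 5.18 in larger clones. *Gzmb*, which encodes the cytotoxic protease granzyme B, stood at 519 and 1079 CPM, against 1.83 and 4.25 in lymph node cells and 5079 and 3424 in larger clones. Not every gene followed that order, since *Ifngr1* and *Gbp2*, given below, were higher in single-cell clones than in both other populations. All 12 members of the CD8 T cell identity list passed the floor described below, but the rule and the sort had used some of them. None differed by 1.5-fold, and their median log2 ratio was -0.05.

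**Figure D1:**
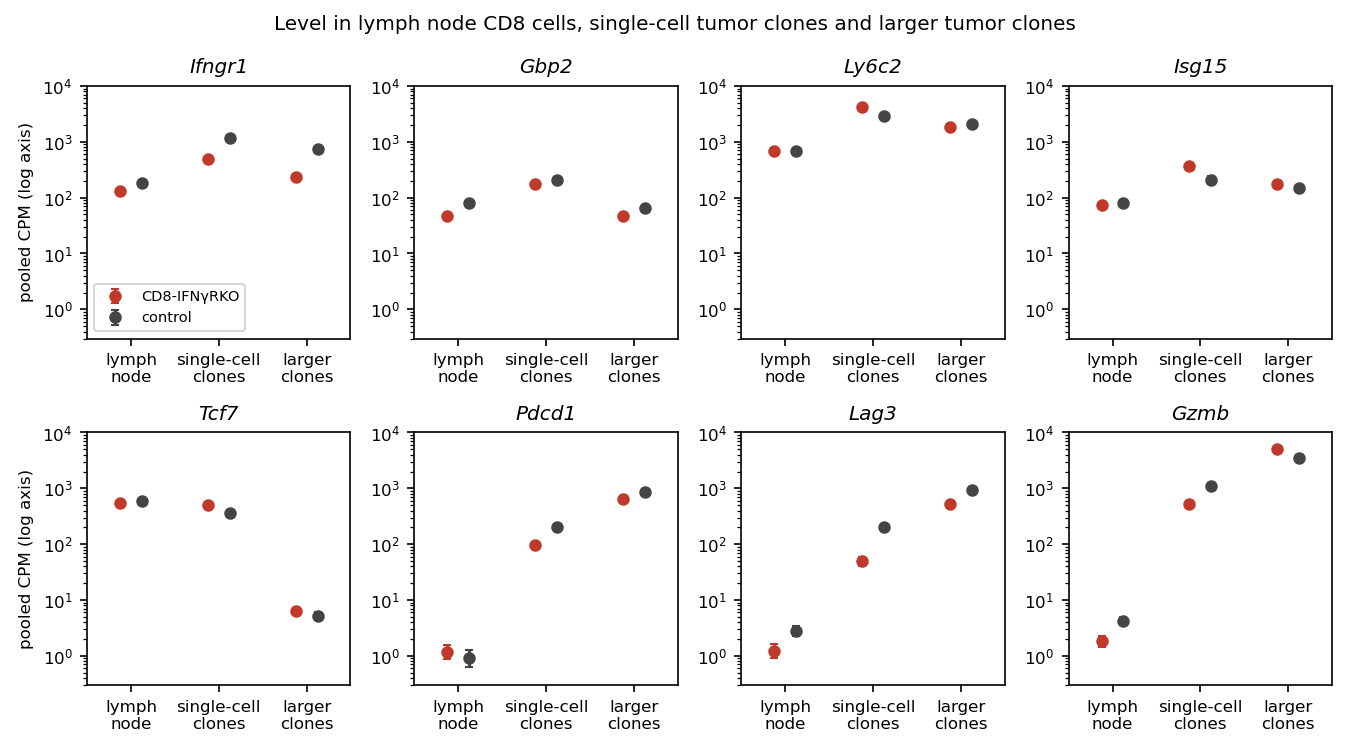
Summed level in CPM (log axis) of 8 genes in lymph node cells, single-cell clones and larger tumor clones, in CD8-IFNγRKO (red) and control (grey) libraries, with exact Poisson 95% intervals from counting. For *Tcf7* the single-cell clones lie far above larger clones, and for *Gzmb*, *Pdcd1* and *Lag3* they lie between lymph node cells and larger clones.

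*Ifngr1*, the deleted gene, was lower in CD8-IFNγRKO single-cell clones and was not absent. Its level was 489 CPM (460 to 520) against 1167 CPM (1102 to 1235) in control cells, a log2 ratio of -1.25 (-1.38 to -1.13). The ratio was -1.68 in larger clones (230 against 738 CPM) and -0.43 in lymph node cells (133 against 180 CPM). Cells with at least 1 UMI were 82.4% and 95.9% of the libraries' members, and 63.9% and 86.1% after each cell was thinned to 2200 UMIs at random. The counts are per gene and do not say which exon a UMI came from, so these UMIs cannot tell a recombined transcript from an intact one, and what share of the cells kept a working receptor was not measured. *Ifngr2*, the other receptor chain, had 31 and 9 UMIs in all, below the floor used for ratios.

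Genes were compared when they reached 50 CPM in either genotype and 100 UMIs over both, and one is called higher or lower when its ratio was at least 1.5-fold, without a test. A gene could reach that floor only through the genotype where it was higher, as *Lag3*, *Tnfrsf4*, *Mt1* and *Oasl2* below did, among others. Counts of genes near the floor therefore lean toward large ratios. In single-cell clones the CD8-IFNγRKO sum held more UMIs, 2123828 against 1030896. The minimum of 100 UMIs thus passes genes of low level more readily when they are higher in CD8-IFNγRKO cells. In single-cell clones 2964 genes reached that floor, of which 90 (3.04%) were higher and 126 (4.25%) lower in CD8-IFNγRKO cells, with a median log2 ratio of -0.06 (interquartile range -0.22 to 0.13). Leaving T cell receptor, heat shock, ribosomal and mitochondrial genes out of the library size let 3993 genes reach the floor and turned the split to 165 higher and 118 lower. The median log2 shift from this change was only -0.015, and the splits come from gene sets of different size. In larger clones 190 of 3138 genes (6.05%) were higher and 148 (4.72%) lower. In lymph node cells, with far more UMIs, 3 of 2767 genes (0.108%) were higher and 6 (0.217%) lower. The gene lists below were drawn up with earlier results of these data known, and each count is to be read against these shares.

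Around the receptor, signaling genes were close to equal. Of 10 listed genes of the receptor and its JAK-STAT pathway 7 reached the floor, and besides *Ifngr1* only *Socs3*, a feedback inhibitor of cytokine receptors, passed 1.5-fold, at 365 against 209 CPM (log2 ratio 0.81, 0.59 to 1.03). *Jak1*, the kinase bound to IFNγR1, stood at 397 and 402 CPM, and *Socs1*, which blocks that kinase, at 187 and 166 CPM.

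The interferon regulatory factors, which carry the signal to further genes, went in different directions. Of 8 listed, 5 reached the floor, 1 was lower and none higher. *Irf8* stood at 63.1 CPM in CD8-IFNγRKO and 107 CPM in control cells (log2 ratio -0.75, -1.13 to -0.38). *Irf1*, an early IFNγ target, stood at 390 and 496 CPM (log2 ratio -0.34, -0.51 to -0.18), against log2 ratios of -0.78 in larger clones and -0.11 in lymph node cells. *Irf7*, a factor of the antiviral response, went the other way, at 383 and 266 CPM (log2 ratio 0.53, 0.33 to 0.73), with -0.07 in larger clones.

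The GTPases that IFNγ induces against intracellular microbes differed little in single-cell clones. Of 18 listed guanylate-binding proteins and immunity-related GTPases 11 reached the floor, none was 1.5-fold higher or lower, 8 had a log2 ratio above 0, and the median was 0.05. In larger clones 1 of 8 was lower and the median was -0.32. In lymph node cells 2 of 11 were lower, all 11 were below 0, and the median was -0.34. *Gbp2* stood at 175 and 209 CPM in single-cell clones (log2 ratio -0.25, -0.50 to -0.01), at 47.3 and 64.0 CPM in larger clones and at 46.9 and 81.8 CPM in lymph node cells, where its log2 ratio was -0.79. The highest ratio of the list was that of *Tgtp2*, at 103 and 68.9 CPM (log2 ratio 0.58, 0.19 to 0.99, and 0.61, past 1.5-fold, without the top cell of each library), followed by *Gbp9* at 0.47, while *Tgtp1*, whose reads can be confused with those of *Tgtp2*, stood at 0.05.

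Promoters are shown for the gene with the lowest and the gene with the highest ratio of each of the 2 lists, since interferon acts through short sequence elements. The windows run from 250 bases before to 50 after the transcript start and come from RefSeq on GRCm38.p6, printed on the strand of the gene. Capitals mark matches on either strand to TTCNNNGAA, the core of the gamma-activated sequence, or to GAAA, a gap of 2 letters and GAAA, a simple form of the interferon-stimulated response element:
Irf8, chr8:120736108-120736407, plus strand: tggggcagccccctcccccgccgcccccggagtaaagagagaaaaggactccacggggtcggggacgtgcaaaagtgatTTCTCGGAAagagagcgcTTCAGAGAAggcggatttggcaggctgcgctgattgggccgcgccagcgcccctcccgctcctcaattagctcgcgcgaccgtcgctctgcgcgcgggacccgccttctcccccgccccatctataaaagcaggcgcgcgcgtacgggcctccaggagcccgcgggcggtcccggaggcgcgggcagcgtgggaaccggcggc
Irf7, chr7:141266375-141266674, minus strand: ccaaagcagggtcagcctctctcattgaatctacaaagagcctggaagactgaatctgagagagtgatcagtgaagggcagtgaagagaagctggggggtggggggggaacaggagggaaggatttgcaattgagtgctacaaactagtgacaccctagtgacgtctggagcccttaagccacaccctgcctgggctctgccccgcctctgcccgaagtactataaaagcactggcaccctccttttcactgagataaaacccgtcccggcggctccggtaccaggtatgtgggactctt
Gbp2, chr3:142620413-142620712, plus strand: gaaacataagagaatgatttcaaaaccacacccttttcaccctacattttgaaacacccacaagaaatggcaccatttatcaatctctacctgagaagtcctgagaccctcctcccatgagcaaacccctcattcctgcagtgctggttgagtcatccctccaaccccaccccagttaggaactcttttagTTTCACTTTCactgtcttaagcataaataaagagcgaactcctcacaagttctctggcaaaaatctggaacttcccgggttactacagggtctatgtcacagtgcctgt
Tgtp2, chr11:49064163-49064462, minus strand: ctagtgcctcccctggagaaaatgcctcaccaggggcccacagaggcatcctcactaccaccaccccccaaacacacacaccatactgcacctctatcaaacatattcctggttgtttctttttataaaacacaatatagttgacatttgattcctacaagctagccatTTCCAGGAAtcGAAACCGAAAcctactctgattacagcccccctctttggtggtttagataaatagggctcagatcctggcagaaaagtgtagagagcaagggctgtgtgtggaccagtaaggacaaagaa
The first motif matched at 2 places in the *Irf8* window, 171 and 153 bases before the start, and once in that of *Tgtp2*, 81 bases before it, and also in the *Irf1* window, which is not shown. The second motif matched in the windows of *Gbp2* and *Tgtp2*, 59 and 70 bases before the start. For 12 of the 16 genes of both lists above the floor 15 windows were found, of which 7 held the first motif and 7 the second, and the further windows of *Irf8* and *Irf1* held neither. Over all 32851 windows 2726 (8.30%) held the first and 1131 (3.44%) the second. A match is a description of the letters, not a measured site, and both the lowest ratio (*Irf8*) and the highest (*Tgtp2*) had one, whereas the *Irf7* window had neither.

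Antigen presentation genes, targets of IFNγ in most cells, were level in single-cell clones. All 19 listed genes reached the floor, none passed 1.5-fold, 11 had a log2 ratio above 0 and 8 below, and the median was 0.02, although 3 were lower after thinning each cell to 2200 UMIs and 1 with per-cell means. *B2m*, the light chain of MHC class I, stood at 2224 CPM in CD8-IFNγRKO and 2085 CPM in control cells (log2 ratio 0.09, 0.02 to 0.17), against log2 ratios of -0.26 in larger clones and -0.10 in lymph node cells. In larger clones 2 of the 19 were lower and in lymph node cells 1 of 19, with all 19 below 0 there and a median of -0.19. The lowest in single-cell clones were *H2-Q6*, at 138 and 193 CPM (log2 ratio -0.48, -0.75 to -0.22), whose reads can be confused with *H2-Q7*, and the peptide transporter gene *Tap2* at -0.38. The highest were *H2-Q4* at 0.35 and *H2-T23* at 0.21.

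Antiviral interferon-stimulated genes, which type I interferon induces strongly, were on the higher side. Of 33 listed genes 24 reached the floor, 8 were higher, none lower, 22 had a log2 ratio above 0, and the median was 0.47. The count of higher genes was 4 after thinning and 5 with per-cell means. *Oasl2* stood at 67.8 CPM in CD8-IFNγRKO and 20.4 CPM in control cells (log2 ratio 1.69, 1.07 to 2.47), with a UMI in 21.2% and 7.76% of cells. *Usp18*, which removes ISG15 from proteins and damps type I interferon signaling, stood at 102 and 38.8 CPM (log2 ratio 1.37, 0.90 to 1.92). *Isg15*, the ubiquitin-like modifier itself, stood at 375 and 212 CPM (log2 ratio 0.82, 0.61 to 1.05) and was seen in 51.8% and 34.7% of cells. The other members past 1.5-fold were *Ifit3b* (1.02), *Ifit3* and *Oas3* (both 0.78), *Rtp4* (0.71) and *Bst2* (0.65), of which the *Ifit3* pair is alike in sequence. In larger clones 2 of 15 were higher and 12 above 0, with a median of 0.16, and in lymph node cells none of 14, with a median of 0.01, where *Isg15* had a log2 ratio of -0.11. UMIs summed over the list were higher in both tumor populations. Their log2 ratio was 0.48 (0.43 to 0.53) in single-cell clones, 0.39 (0.38 to 0.40) in larger clones and 0.08 in lymph node cells. The lowest members in single-cell clones were *Dtx3l* at -0.21 and *Samhd1* at -0.18.

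The Ly6 genes, small surface proteins that mark memory and interferon-exposed T cells, differed most for *Ly6c2* in single-cell clones, short of 1.5-fold. It stood at 4152 CPM in CD8-IFNγRKO and 2851 CPM in control single-cell clones (log2 ratio 0.54, 0.48 to 0.60), at 1813 and 2090 CPM in larger clones and at 676 and 691 CPM in lymph node cells. *Ly6a*, the gene of Sca-1, stood at 1088 and 1039 CPM in single-cell clones (log2 ratio 0.07), while in lymph node cells it stood at 19.5 and 75.6 CPM (log2 ratio -1.90). Of the 6 listed Ly6 and IFITM genes 3 reached the floor in single-cell clones and none passed 1.5-fold, with *Ly6e* at a log2 ratio of 0.43. UMIs summed over the list had a log2 ratio of 0.42 (0.38 to 0.47). In larger clones all 6 reached the floor and 1 was lower, at -2.20, with a median of -0.19.

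**Figure D2:**
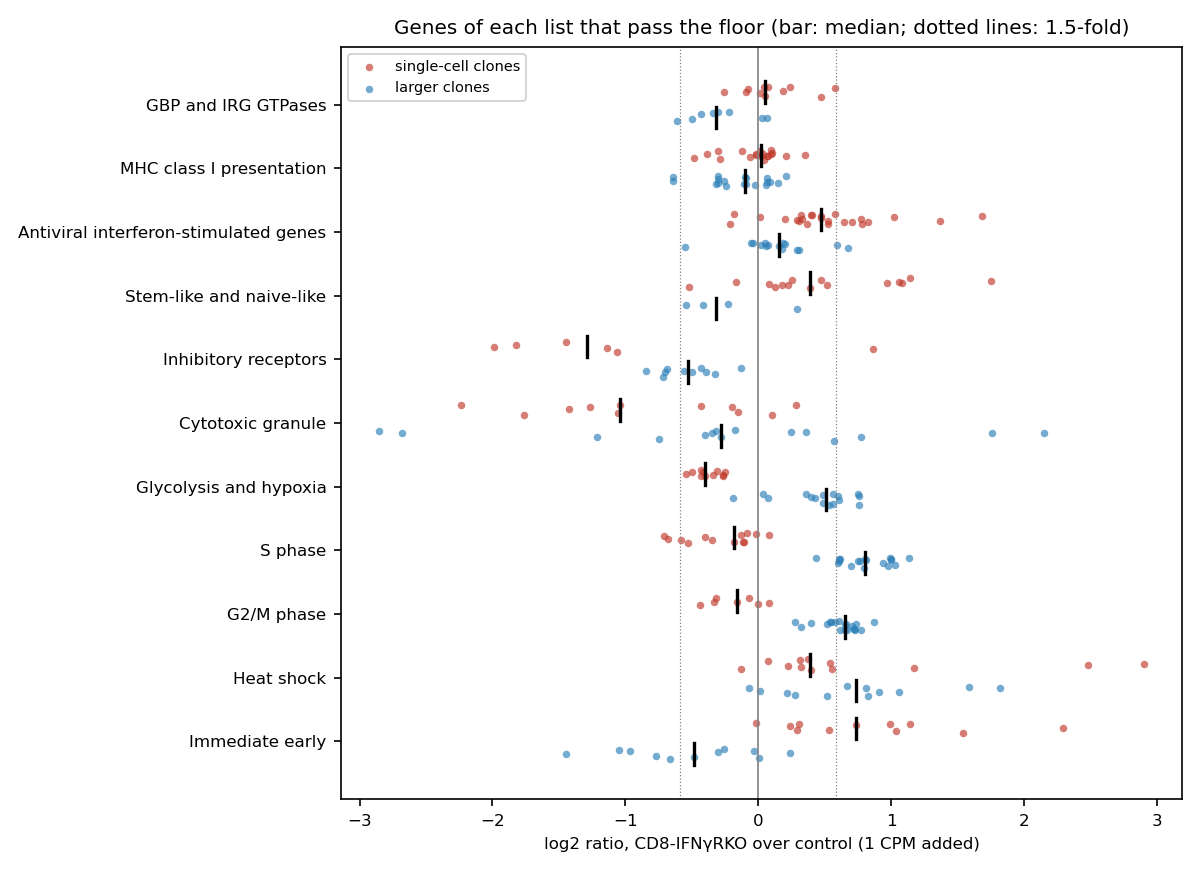
Log2 ratio of CD8-IFNγRKO over control for each gene above the floor in 11 lists, in single-cell clones (red) and larger clones (blue), with bars at list medians and dotted lines at 1.5-fold. Vertical scatter only spreads the points. In single-cell clones most inhibitory receptors lie left of 0 and most antiviral and immediate early genes right of it, while in larger clones most S and G2/M phase genes lie right of 0.

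Inhibitory receptors were lower in CD8-IFNγRKO single-cell clones. Of 15 listed genes 6 reached the floor, 5 were lower and 1 higher, with a median log2 ratio of -1.29. Of these, *Lag3* passed only through control and *Cd160* only through CD8-IFNγRKO cells. UMIs summed over all 15 genes, whether or not they reached the floor, had a log2 ratio of -1.21 (-1.32 to -1.11). *Lag3* stood at 49.4 CPM against 199 CPM (log2 ratio -1.99, -2.36 to -1.66), *Ctla4*, the competitor of CD28 for its ligands, at 104.5 against 371.5 CPM (-1.82, -2.07 to -1.59), and *Pdcd1*, which encodes PD-1, at 96.1 against 202 CPM (-1.06, -1.36 to -0.79). *Klrc1* and *Tigit* were the other lower members, at log2 ratios of -1.44 and -1.14, and *Cd160* was the higher one, at 85.7 against 46.6 CPM (0.87, 0.41 to 1.37). In larger clones 4 of 10 were lower, with a median of -0.53, where *Pdcd1* stood at 641 and 865 CPM and *Lag3* at 524 and 940 CPM. *Havcr2*, which encodes Tim-3, had 29 and 44 UMIs in single-cell clones, below the floor, at 13.7 and 42.7 CPM.

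By cell the pattern was the same at equal depth. After thinning to 2200 UMIs, which kept 424 CD8-IFNγRKO and 201 control cells and left out 47 and 18 shallower ones, *Pdcd1* was seen in 9.43% and 17.9% and *Lag3* in 5.19% and 15.4%. Unthinned shares were 12.5% and 27.4% for *Pdcd1* and 9.77% and 23.7% for *Lag3*. Neither gene had a UMI in any of 600 thinned lymph node cells of either genotype, which allows up to 0.613% of cells with a UMI at that depth. Unthinned lymph node cells had one in 0.356% and 0.367% for *Pdcd1* and in 0.303% and 0.755% for *Lag3*. In larger clones *Pdcd1* was seen in 69.5% and 78.3%. *Tcf7* and *Pdcd1* were seen together in 18 CD8-IFNγRKO (4.25%, 2.54 to 6.63) and 11 control cells (5.47%, 2.76 to 9.58), with overlapping intervals.

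Transcription factors tied to exhaustion and activation were also on the lower side. Of 17 listed, 13 reached the floor, 5 were lower and none higher, with a median log2 ratio of -0.37. *Bhlhe40*, a factor of activated T cells, stood at 195 against 438 CPM (log2 ratio -1.16), and *Tox*, which maintains exhausted T cells, at 29.7 against 52.4 CPM (-0.80, -1.37 to -0.27). *Nfatc1*, *Nr4a2* and *Hif1a* were the other lower members, at -0.91, -0.81 and -0.67. The highest were *Ikzf2* at 0.22 and *Ikzf3* at 0.17.

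Several granule genes were lower too. Of 17 listed genes 11 reached the floor, 6 were lower and none higher, with a median log2 ratio of -1.04, whereas in larger clones 3 of 15 were higher and 4 lower. *Gzmb* had a log2 ratio of -1.05 (-1.18 to -0.93) in single-cell clones and 0.57 in larger clones. It was seen in 27.6% (23.4 to 32.1) and 33.8% (27.3 to 40.8) of thinned single-cell clones, with overlapping intervals, against 0.167% and 0.333% of thinned lymph node cells. Unthinned single-cell clones stood at 35.5% and 41.6%. *Gzmk* stood at 37.7 against 181 CPM (-2.24, -2.66 to -1.88), and *Prf1*, which encodes the pore-forming perforin, at 59.8 against 162 CPM (-1.42). *Gzma* stood at 142 against 485 CPM (-1.76, -1.98 to -1.56), but 1 control cell held 204 of the 500 control UMIs, and without the cell with most *Gzma* UMIs in each library the log2 ratio was -1.20. The share of cells with a *Gzma* UMI was close, at 17.4% in CD8-IFNγRKO and 18.3% in control single-cell clones. After thinning it was 12.7% (9.71 to 16.3) and 14.9% (10.3 to 20.6). The remaining lower members were *Serpinb9* (-1.26) and *Fasl* (-1.04), and the highest was the cathepsin gene *Ctsw*, at 714 against 586 CPM (0.28).

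Cytokines and chemokines were mixed. Of 20 listed genes 7 reached the floor, 3 were lower and 1 higher. *Ccl5*, a chemokine of effector and memory T cells, stood at 1651 CPM in CD8-IFNγRKO and 4300 CPM in control cells (log2 ratio -1.38, -1.45 to -1.32), and its ratio was -1.62 in larger clones and -0.34 in lymph node cells. *Ifng* itself stood at 71.1 and 124 CPM (-0.80, -1.15 to -0.45). It was seen in 8.49% (6.02 to 11.6) and 15.4% (10.7 to 21.2) of thinned cells, with overlapping intervals. The third lower member was *Ccl3*, at 27.3 and 80.5 CPM. *Xcl1*, the chemokine that draws cross-presenting dendritic cells, was higher at 419.5 and 118 CPM (1.82, 1.55 to 2.11). A single cell held 420 of the 891 CD8-IFNγRKO UMIs of *Xcl1* and another 52 of the 122 control UMIs. Without both cells the log2 ratio was 1.66, and a UMI was seen in 20.8% and 14.2% of cells. After thinning the shares were 13.9% (10.8 to 17.6) and 9.45% (5.79 to 14.4), with overlapping intervals.

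Costimulatory and homing receptors were lower or close to equal, apart from 1 gene in each list. Of 10 costimulatory genes, all above the floor, 3 were lower and 1 higher. *Tnfrsf4*, which encodes OX40, stood at 14.1 against 89.2 CPM (log2 ratio -2.58, -3.31 to -2.05), the lowest outside T cell receptor, mitochondrial and ribosomal protein genes. It reached the floor only through control cells. Without the top cell of each library its log2 ratio was -2.39, and those of *Mt1* and *Nrgn*, given below, were lower at -2.61 and -2.71. *Tnfrsf9*, which encodes 4-1BB, stood at 109 against 243 CPM (-1.14), and *Icos* had a log2 ratio of -0.90, while *Cd27* stood at 0.02. *Crtam* was the higher member, at 66.4 against 25.2 CPM (1.36, 0.79 to 2.06), with 39 of 141 CD8-IFNγRKO UMIs in 1 cell and a log2 ratio of 1.01 without the top cells. Of 16 homing and chemokine receptor genes 9 reached the floor, 3 were lower, among them *Cxcr6* (-1.28) and *Itga4* (-0.63), and *Cd69*, an early activation and residency marker, was higher at 377 against 233 CPM (0.69, 0.49 to 0.91).

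Stem-like and naive-like genes were on the higher side. Of 18 listed genes 15 reached the floor, 5 were higher and none lower, with a median log2 ratio of 0.39. *Id3*, a helix-loop-helix inhibitor that memory precursors express, stood at 107 CPM in CD8-IFNγRKO and 31.0 CPM in control cells (log2 ratio 1.75, 1.25 to 2.37). *Klf2*, which drives *S1pr1*, stood at 1601 and 758 CPM (1.08), while *S1pr1* itself had a log2 ratio of -0.17. *Dapl1* (1.14) and *Bcl2* (0.97) were also higher. *Tcf7* stood below 1.5-fold, at a log2 ratio of 0.47 (0.30 to 0.65), as did *Il7r* (0.18) and *Ccr7* (0.13), and *Bach2* was the lowest of the list, at 56.5 and 81.5 CPM (-0.52).

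By cell, *Tcf7* was seen in 64.4% of CD8-IFNγRKO and 51.2% of control cells after thinning, and in 79.4% and 63.0% without it. Thinned lymph node cells stood at 66.7% and 69.8%, and thinned cells of larger clones at 2.67% and 1.17%. *Ccr7*, the lymph node homing receptor, was seen in 57.8% (52.9 to 62.5) and 50.2% (43.1 to 57.4) of thinned cells, with overlapping intervals.

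The members were next ordered by 2 sums, the UMIs of the stem-like and naive-like list and those of the granule list, a split added after the values above were known. More stem-like and naive-like than granule UMIs were found in 337 of 471 cells (71.5%, 67.2 to 75.6) of the CD8-IFNγRKO library. In the control library they were found in 110 of 219 (50.2%, 43.4 to 57.0). The list does not tell naive-like from stem-like cells. After thinning the shares were 70.0% (65.4 to 74.4) and 46.3% (39.2 to 53.4). The control share was higher, past its interval, when clone size was counted over all barcodes with both chains. The same sums gave 99.2% and 98.6% in lymph node cells and 0.826% and 0.364% in larger clones. The line cuts a continuum, not types: 238 cells (50.5%) and 99 cells (45.2%) lay within 2-fold of it, and 11 and 4 had equal sums. Just outside the rule, 2-cell clones had more stem-like and naive-like UMIs in 39.5% (24.0 to 56.6) of 38 cells of the CD8-IFNγRKO library. In the control library the share was 4.17% (0.105 to 21.1) of 24 cells. These cells are pairs from 19 and 12 clones, and the intervals treat each cell as a separate draw.

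**Figure D3:**
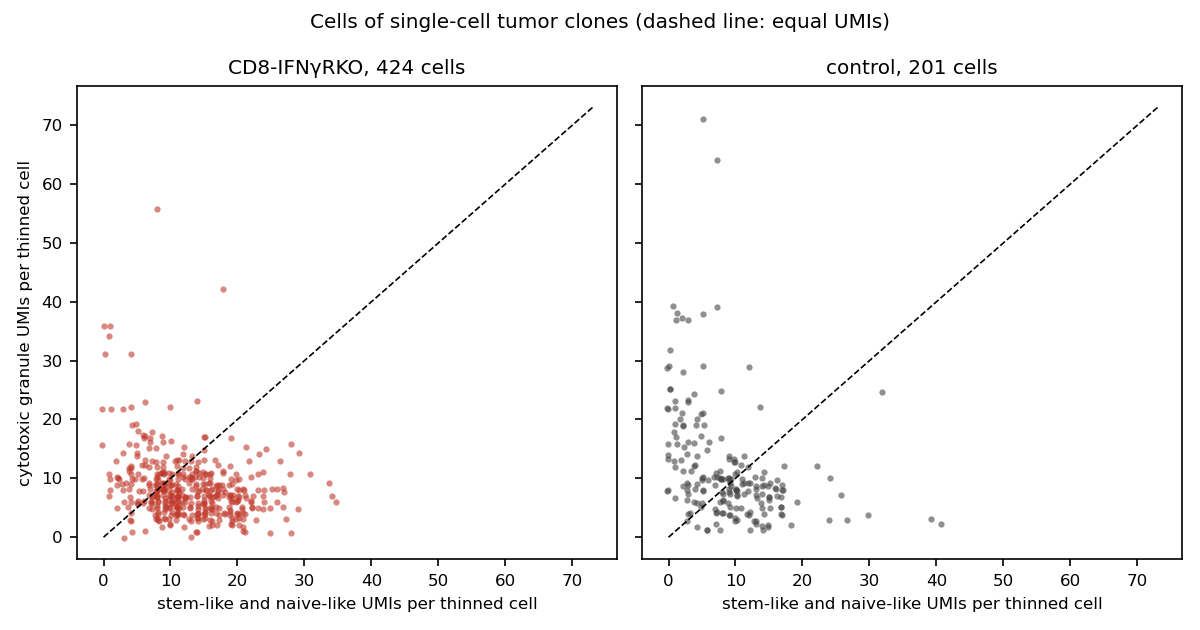
Each point is a cell of a single-cell clone thinned to 2200 UMIs, with UMIs of the stem-like and naive-like list on the x axis and UMIs of the cytotoxic granule list on the y axis, shifted by at most 0.3 UMIs so that points do not hide each other. Below the dashed line of equal sums lie 70.0% of 424 CD8-IFNγRKO cells (red) and 46.3% of 201 control cells (grey).

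Genotype ratios were then taken within both sides of that line, for genes of other lists only. The line did not make the genotypes equal in its own lists: of the stem-like genes 3 of 16 were higher and 2 lower on its stem-like side and 5 of 9 higher in the rest, and of the granule genes 1 of 7 was higher on that side and 5 of 10 were lower in the rest. Cells with more stem-like and naive-like UMIs, called stem-weighted below with naive-like cells included, had median UMIs of 3814 and 3813, the rest 4273 and 3911. Among the stem-weighted cells 96 of 2460 genes (3.9%) were higher and 47 (1.91%) lower. These sums covered 337 CD8-IFNγRKO and 110 control cells. The UMI minimum thus passed genes of low level more readily when higher in CD8-IFNγRKO cells, and the split leans that way. In the rest, 80 of 1909 (4.19%) were higher and 72 (3.77%) lower. *Ifngr1* stood at 504 and 1310 CPM in the stem-weighted cells (log2 ratio -1.38) and at 460 and 1048 CPM in the rest (-1.19).

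Antiviral genes were higher on both sides. In the stem-weighted cells 10 of 24 were higher and none lower, with a median of 0.51, and in the rest 5 of 15 were higher and none lower, also with a median of 0.51. The GTPases stayed near 0 on both, at medians of 0.01 and 0.06 with none past 1.5-fold. *Gbp2* had a log2 ratio of -0.57 (-0.89 to -0.26) in the stem-weighted cells and 0.04 in the rest. Antigen presentation genes had medians of 0.07 and 0.01, with 1 of 18 lower in the rest.

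Among inhibitory receptors, *Ctla4* was lower on both sides, with log2 ratios of -1.46 and -1.65. *Lag3* stood at 110 against 318 CPM in the rest (-1.53), while in the stem-weighted cells its 25 and 26 UMIs (17.9 and 55.5 CPM) were below the floor. *Pdcd1* had 25 UMIs over 337 CD8-IFNγRKO and 29 UMIs over 110 control stem-weighted cells, also below the floor. Its log2 ratio was -0.37 (-0.68 to -0.07) in the rest, short of 1.5-fold. Of the list 1 of 3 was lower in the stem-weighted cells, with all 3 below 0, and 4 of 6 were lower and 1 higher in the rest. UMIs summed over the whole list had a log2 ratio of -0.76 (-0.97 to -0.56) in the stem-weighted cells and -0.92 (-1.05 to -0.80) in the rest. Exhaustion factors had no member past 1.5-fold among 10 in the stem-weighted cells and 4 of 10 lower in the rest.

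**Figure D4:**
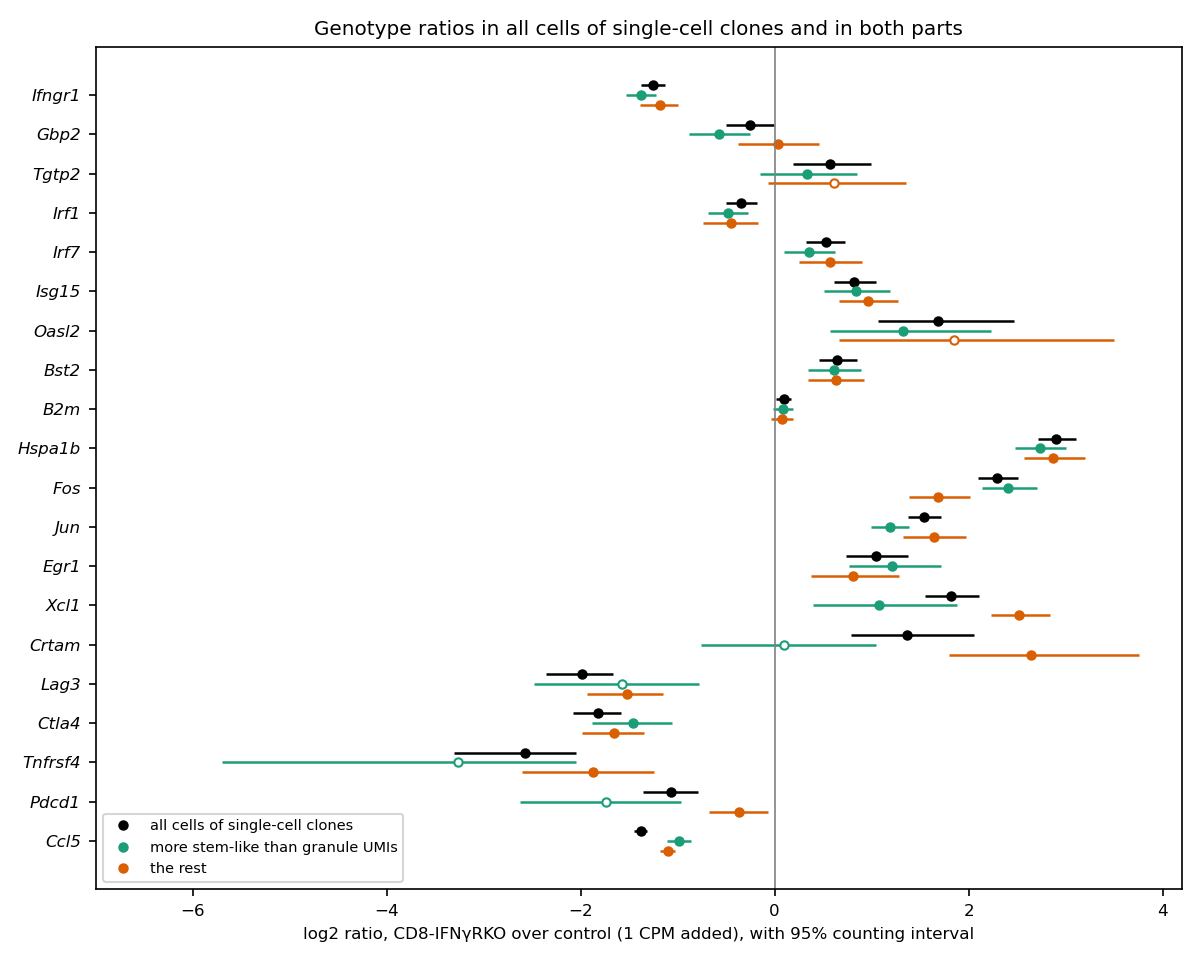
Log2 ratio of CD8-IFNγRKO over control with exact 95% counting intervals for 20 genes in all single-cell clones (black), in those with more stem-like and naive-like than granule UMIs (green) and in the rest (orange), with open symbols where a gene was below the floor. *Ifngr1* and *Ctla4* lie left of 0 and *Hspa1b*, *Fos* and *Jun* right of it in all 3.

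The highest ratios outside those gene classes belonged to stress and immediate early genes. Of 15 heat shock genes 12 reached the floor, 3 were higher and none lower, with a median log2 ratio of 0.39. *Hspa1b*, an inducible HSP70 gene, stood at 1637 CPM in CD8-IFNγRKO and 218 CPM in control cells (2.90, 2.71 to 3.11), with a UMI in 62.2% and 24.7% of cells. *Hspa1a*, its near-identical neighbor, stood at 1202 and 214 CPM (2.48), and reads of the pair can be confused. Of the control UMIs 1 cell held 24.4% for *Hspa1b* and 26.7% for *Hspa1a*, and without the top cells the log2 ratios were 3.28 and 2.87. *Dnajb1*, an HSP70 partner, had a log2 ratio of 1.17, and *Hspa5*, of the endoplasmic reticulum, was the lowest at -0.13. The genes were also higher elsewhere, *Hspa1b* by log2 ratios of 1.58 in larger clones and 0.62 in lymph node cells, and the list had 7 of 12 higher in larger clones and 2 of 12 in lymph node cells. The list median was 0.74 in larger clones and 0.46 in lymph node cells, both above that of single-cell clones. In all 3 populations 11 of 12 genes were above 0.

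Immediate early genes, which T cell receptor signals and stress switch on within minutes, were higher in CD8-IFNγRKO single-cell clones. Of 14 listed 11 reached the floor, 6 were higher and none lower, with a median log2 ratio of 0.73. *Fos* stood at 1032 and 209.5 CPM (2.29, 2.10 to 2.51) and was seen in 65.8% and 37.0% of cells. *Jun* stood at 986 and 339 CPM (1.54, 1.38 to 1.71), and *Zfp36* (1.14), *Egr1* (1.04), *Fosb* (0.99) and *Dusp1* (0.73) were the other higher members. *Fos* had log2 ratios of 0.01 in larger clones and -0.09 in lymph node cells, where it stood at 977 and 1037 CPM. In larger clones 5 of 11 listed genes were lower, and in lymph node cells none of 11 passed 1.5-fold. On both sides of the line above, 6 of 11 were higher, with medians of 0.73 and 0.81, and 5 and 4 of 12 heat shock genes were higher.

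The 10 highest and 10 lowest genes held few outside the lists. On the higher side these were *Igfbp4*, at 115 and 24.3 CPM (log2 ratio 2.20, 1.65 to 2.90), which in lymph node cells stood at 433 and 596 CPM, the stress gene *Gadd45g* (1.46) and the noncoding *Gm26917* (1.42). *Igfbp4* was seen in 17.8% and 7.31% of cells. On the lower side they included *Mt1*, a metallothionein, at 16.5 and 103 CPM (-2.57, -3.24 to -2.08), *Nrgn* at 22.1 and 134 CPM (-2.54) and *Rgs16*, a brake on chemokine receptor signaling (-1.54). *Mt1* had 106 control UMIs in 36 cells and 35 CD8-IFNγRKO UMIs in 16 cells, and in larger clones it stood at 1063 and 798 CPM.

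Cell cycle and metabolic genes differed less, and not in the direction seen in larger clones. *Mki67*, a marker of cycling cells, stood at 52.3 and 52.4 CPM (log2 ratio -0.00, -0.48 to 0.49), with a UMI in 7.22% and 7.31% of cells, against a log2 ratio of 0.61 in larger clones. Of 25 G2/M genes 7 reached the floor and none passed 1.5-fold, and of 24 S phase genes 13 reached it and 2 were lower, *Rrm1* (-0.71) and *Dut* (-0.68), of which *Dut* stood at -0.49, short of 1.5-fold, without the top cell of each library. In larger clones 17 of 18 S phase genes and 13 of 20 G2/M genes were higher. Glycolysis genes had a median log2 ratio of -0.40 over 11, all below 0 and none past 1.5-fold, with *Gapdh* at 3095 and 4368 CPM (-0.50) and *Pgk1* at -0.54, whereas in larger clones 5 of 16 were higher. Within the stem-weighted cells the glycolysis median was -0.04 and in the rest -0.31. No cholesterol synthesis gene of 20 reached the floor in single-cell clones, and their summed log2 ratio was -0.07 (-0.26 to 0.11), so that no difference was detectable at this depth.

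Some markers of other cells were at 0 in these members and others were not. Of the myeloid list *C1qa*, *C1qc*, *Lyz2* and *Apoe* had no UMI, and the summed list stood at 257 CPM in CD8-IFNγRKO and 299 CPM in control cells, mostly *Ctss* and *Cst3*. No cell had 1% or more of its UMIs on that list. The B cell genes *Cd79a* and *Ms4a1*, the natural killer gene *Ncr1*, the regulatory T cell gene *Foxp3* and the erythroid list were at 0, while *Cd4* had 30 and 2 UMIs, the melanoma list 6 and 24, and *Ighm* 237 and 88 (112 and 85.4 CPM). A UMI of the B cell list was seen in 24.3% and 18.4% of thinned members, against 4.5% and 1.67% in larger clones and 41.0% and 37.8% in lymph node cells. For the myeloid list the shares were 40.1% and 43.8% in members and 48.7% and 50.7% in larger clones. The natural killer and γδ T cell list had 163 and 88 UMIs, of which 155 and 84 were *Eomes*, a factor that CD8 T cells also express, and the stromal list 67 and 25, all *Pecam1*. The part of these transcripts in the ratios was not tested.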

How the data were processed

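The cells came from tumors and their draining nodes, and 4 gene expression libraries (10x 5′ v2) and the 2 tumor TCR libraries were used. The deposited values are raw UMI counts per gene and barcode, which the authors made with Cell Ranger 6.0.0 on mm10 according to the submitters' processing notes, together with annotated TCR contigs and their UMI counts. In the control library 12 barcodes with both chains were not in the count matrix. The members and the gene lists were chosen with earlier results of these data known.

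Counts of the members were summed per library and scaled to CPM (32285 genes). Genes with at least 50 CPM in either genotype and 100 UMIs over both were compared, with 1 CPM added. No cell was removed for depth and no doublet caller was run, but 1 alternative kept only cells with exactly 1 TRA and 1 TRB contig. Shares of cells were also taken after thinning each cell to 2200 UMIs, with 600 cells drawn from each other population. Genes were named by rule: fixed receptor, stem, inhibitory and effector genes, the 2 highest and 2 lowest of each list, and the 10 highest and 10 lowest of all genes without TCR, mitochondrial and ribosomal protein genes. Other list members were named after their values were seen, and some named genes are not reported here. The *Ifngr1* ratio, the gene counts, the counts of several lists, the clone numbers and the stem-weighted shares were recomputed under 15 alternatives. Ratios of the other named genes were recomputed only without the top cell of each library. The split by UMIs of the stem-like and naive-like list and of the granule list, the count of higher antiviral genes and the ratios without the top cell of each library were added after seeing the data. Scripts (matplotlib 3.10.9, pandas 2.3.3, scipy 1.17.1 and numpy 2.4.6 under Python 3.11.15) were tested on simulated data.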

Additional observations from a re-analysis of the deposited data

Results flagged for a closer look

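For 4 named genes the log2 ratio of CD8-IFNγRKO over control was past 1.5-fold in opposite directions in single-cell and larger clones. *Gzmk*, a granzyme gene, stood at -2.24 in single-cell clones and 0.77 in larger clones. *Gzma* stood at -1.76 and 2.15, with 40.8% of its control UMIs in single-cell clones coming from 1 cell. A *Gzma* UMI was seen in similar shares of single-cell clones, 17.4% in CD8-IFNγRKO and 18.3% in control. The S phase genes *Rrm1* and *Dut* stood at -0.71 and -0.68 in single-cell clones and at 0.76 and 0.60 in larger clones, with 38 of the 192 control UMIs of *Dut* in 1 cell. Without the top cell of each library *Dut* stood at -0.49, short of 1.5-fold. The clones ranked 1 and 2 held 1558 and 1260 of the 5931 CD8-IFNγRKO cells of larger clones. In the control library they held 1164 and 1075 of 4394. Ratios in larger clones thus rest largely on few clones. With 1 library per genotype the differences between single-cell and larger clones were not tested.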

How the results depend on the processing

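No paired analysis was possible because each genotype had 1 library, and for the same reason no library could be left out. Under the 15 alternatives the *Ifngr1* log2 ratio stayed between -1.32 and -1.14, and no GTPase and no antiviral gene was lower. Without a CPM minimum 1613 genes were higher and 1945 lower, with 11 inhibitory receptors lower and 3 G2/M and 13 antiviral genes higher. With a minimum of 200 CPM 20 were higher and 22 lower, with 2 granule genes lower and 2 stem-like and 2 antiviral genes higher. At 2-fold the counts were 28 and 32, with 3 antiviral genes. The other library size gave 165 higher genes and 1 higher G2/M gene, as did the study's cell filter for G2/M (1). Thinning gave 75 lower genes, 3 antigen presentation genes lower and 4 antiviral genes higher. Per-cell means gave 1 antigen presentation gene lower and 5 antiviral genes higher. Counting clone size over all barcodes with both chains gave 725 CD8-IFNγRKO and 381 control single-cell clones and 68 lower genes. It also gave 57.2% stem-weighted control cells, above the upper limit of 57.0% in the main setting. The cause was not tested, other than the fewer or more genes that a minimum lets pass. Without the cell with most UMIs of a gene in each library, 94 of 97 named genes stayed within their interval, and *Gzma*, *Hspa1a* and *Hspa1b* left it with the direction kept. Depth limits genes under 50 CPM, such as *Ifngr2*, *Havcr2* and *Entpd1*.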

Other observations

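Of the genes outside the comparisons, *Entpd1*, which encodes the ectonucleotidase CD39, had 7 UMIs in CD8-IFNγRKO and 40 in control single-cell clones, and *Spp1*, which encodes osteopontin, had 1 and 48.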
